A study of Homo sapiens with 6 samples.

Results

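The genes described here are 46 interferon-stimulated genes, STATs and other components of interferon signalling, taken from the 27470 genes of the count table by their symbols, and all 46 were found. The RNA came from 22Rv1-ABHD5, a line made from 22Rv1, castration-resistant human prostate cancer cells, by infection with a lentivirus in which doxycycline (Dox) turns on ABHD5 and by selection with G418. There were 3 libraries of cells grown without Dox (labelled Control) and 3 of cells grown with Dox (labelled OE, overexpressing ABHD5), and the labels give 48 h of culture. ABHD5 is the coactivator of ATGL, a triglyceride lipase. The lentivirus and G418 selection are shared by both conditions, and no library of parent cells with Dox was used here, so that Dox and ABHD5 cannot be told apart. Nothing in the sources says whether the libraries came from separate cultures, so the p-values measure only the spread between these libraries, which may be technical.

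Type I interferons bind the receptor made of IFNAR1 and IFNAR2, and interferon gamma binds that made of IFNGR1 and IFNGR2. The kinases JAK1, JAK2 and TYK2 on these receptors phosphorylate STAT proteins. STAT2 joins IRF9 and another STAT in the factor ISGF3, which binds the interferon-stimulated response element (ISRE) in front of many antiviral genes, while STAT dimers bind the GAS element. The RNA sensors encoded by DDX58 (RIG-I) and IFIH1 (MDA5) induce interferon through IRF3 and IRF7, and many of the induced genes encode proteins that block viral entry, translation or RNA stability. The comparison asks which of these genes differed between cells with and without induced ABHD5.

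Reads came from the 3ʹ end of transcripts, and 3394672 to 7271771 reads per library were counted on genes. ABHD5 had 58.0 to 63.5 CPM (TMM-normalized read counts on the scale of a common library size) without Dox and 91.7 to 130.8 with Dox. Of 10 luminal prostate markers, each had counts in all 6 libraries, and 6 were called lower with Dox, against 13.7% of all genes tested. These 10 summed to 1565 to 1671 CPM without Dox and 991 to 1106 with Dox. Of 12 markers of leukocytes, fibroblasts or endothelium, 1 was tested. This was COL1A1, a collagen chain, with 14, 5 and 12 counts without Dox and 24, 13 and 58 with Dox, and it was called higher (log2 fold change 1.22, adjusted p = 0.0313, edgeR quasi-likelihood F-test). Of the others, CD68 reached 10 counts, DCN 6, and PTPRC, CD3E, PECAM1 and VWF at most 1. The 12 summed to 4.70 to 4.96 CPM without Dox and 5.29 to 8.80 with Dox, and the part of these markers in the results was not tested. Values are from bulk RNA, in which fewer cells that express a gene and less RNA per cell cannot be told apart.

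Of the 46 members, 31 passed the filter on low counts and entered the quasi-likelihood F-test of edgeR. The other 15 had too few reads. At a Benjamini-Hochberg adjusted p under 0.05, 7 were higher with Dox (DHX58, IRF7, STAT3, IFITM3, BST2, SP110 and STAT2) and 1 was lower (ISG20). That is 25.8% of the members tested, against 25.5% of the 12233 genes tested over the whole table, so that the total share was near the background. By direction, 22.6% of the members tested were higher, against 11.9% of all genes, and 3.23% were lower, against 13.7%. The median log2 fold change of the members tested was 0.18, and that of all genes tested was 0.02. Leaving out Control replicate 2 moved the members' median to 0.37, with 36 members tested. It was 0.33 when Control replicate 3 was dropped (33 tested) and 0.32 when OE replicate 2 was (35 tested). These fits also tested members that the main fit did not. Without Control replicate 2 these were HERC6, MX1, SAMD9, IFIT2 and IFI6, at 0.49 to 1.97. They were MX1 and IFIT2 without Control replicate 3, and HERC6, MX1, SAMD9 and IFI6 without OE replicate 2. Each added member lay above the median of its fit. In the main fit IRF7, IRF9, DHX58 and IFIT5 passed the filter only through the libraries with Dox. The counts of members and all these medians are therefore descriptions and not support for a rise. Under scaling by library totals alone, the median of all genes moved to 0.14 and that of the members to 0.30. In 14 of the 31 members tested the libraries with Dox all lay above those without, against 19% of all genes. In 4 they all lay below, against 20.5%, and in either direction they were apart in 39.5% of all genes. The 14 include IRF7, IRF9, DHX58 and IFIT5, so this count too is a description and not support for a rise.

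**Figure D1:**
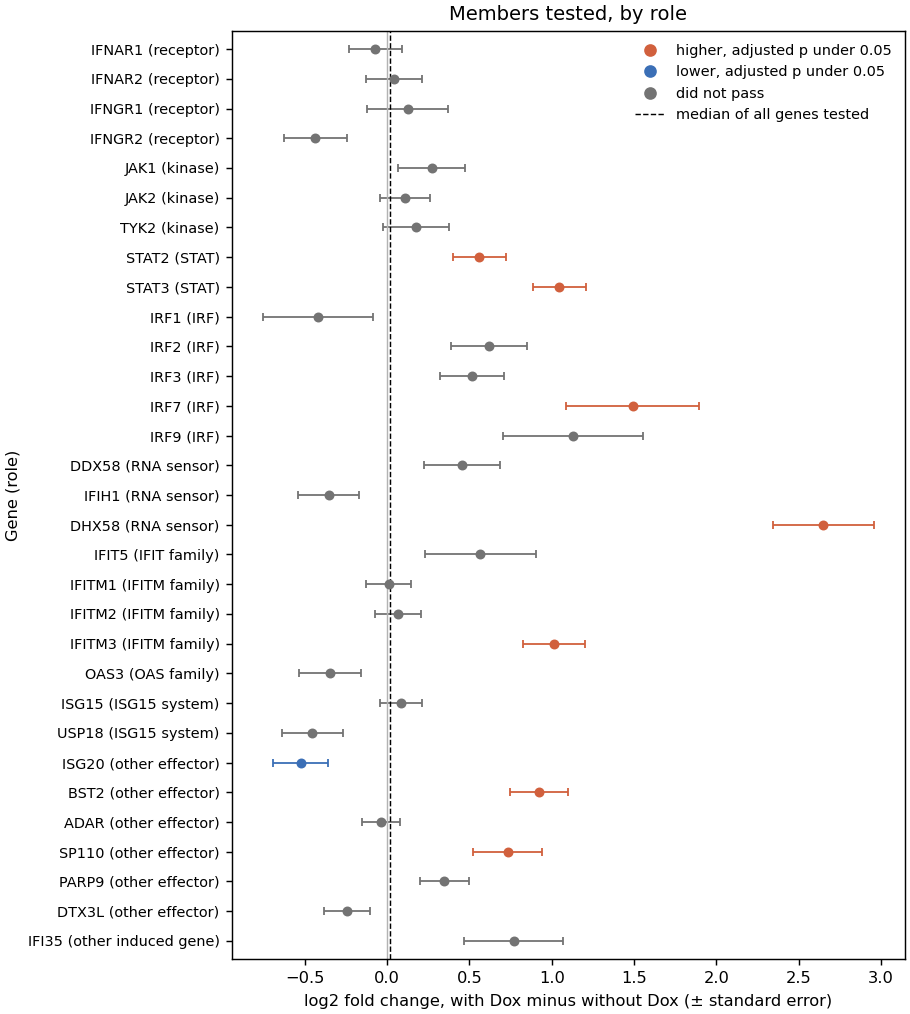
The log2 fold change (with Dox minus without Dox, horizontal axis, ± standard error) of the 31 members tested is plotted by gene and role. DHX58, at 2.65, stands furthest from the dashed median of all genes, the receptors and kinases lie between -0.43 and 0.27, and ISG20 is the member that was called lower.

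None of the receptor subunits or kinases passed the test. The 4 receptor genes had log2 fold changes of -0.07 for IFNAR1 (standard error, SE, 0.16), 0.04 for IFNAR2 (SE 0.17), 0.13 for IFNGR1 (SE 0.25) and -0.43 for IFNGR2 (SE 0.19). Their libraries overlapped between the conditions for each of the 4. IFNAR1 had 137.9, 136.1 and 127.8 CPM without Dox and 138.5, 154.4 and 91.8 with Dox. The spread with Dox came from replicate 3, and the sign of its fold change turned to 0.13 without that library and to 0.05 under library totals alone. IFNAR2 changed sign without replicate 3 without Dox (-0.04) and when replicate 1 with Dox was left out (-0.02). IFNGR2, the accessory chain of the interferon gamma receptor, had an adjusted p of 0.110 (edgeR quasi-likelihood F-test), and of 0.0477 without replicate 2 without Dox and 0.0347 without a filter. It shares 380 exon bases with TMEM50B on the other strand in GENCODE 44, and the use of strand in counting is not stated. The kinase genes JAK1, JAK2 and TYK2 had log2 fold changes of 0.27, 0.11 and 0.18 (adjusted p = 0.353, 0.649 and 0.560, same test). JAK1 did not overlap between the conditions in CPM, at 11.8 to 14.0 CPM without Dox and 14.5 to 16.5 with Dox.

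Both STAT members rose with Dox. STAT3, the transcription factor that acts downstream of interleukin 6 family cytokines as well as of interferons, lies on chromosome 17 of hg38 from 42313324 to 42388540. It had 26.4, 27.6 and 20.8 CPM without Dox and 47.4, 56.2 and 49.7 with Dox. All libraries with Dox lay well above those without, and the log2 fold change was 1.05 (SE 0.16, adjusted p = 1.270e-04, edgeR quasi-likelihood F-test). It stayed between 0.91 and 1.12 with each library left out in turn and was called in all 6 of these fits. STAT2, the subunit of ISGF3 that carries its transactivation domain, lies on chromosome 12 from 56341597 to 56360203. It had 26.1, 20.5 and 26.4 CPM without Dox and 35.9, 35.6 and 36.8 with Dox. The groups did not overlap, and the log2 fold change was 0.56 (SE 0.16, adjusted p = 0.0169, same test). Without replicate 2 without Dox, it was 0.45 and no longer passed (adjusted p = 0.0825, same test). Of the 4 other STAT genes listed outside the members, STAT5A, STAT5B and STAT6 had log2 fold changes of 0.34, 0.34 and 0.32 and did not pass (adjusted p = 0.318, 0.199 and 0.0816, same test), and STAT4 had at most 5 counts in any library.

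Of the 5 interferon regulatory factors, IRF7 passed the test. IRF7, which amplifies type I interferon induction, lies on chromosome 11 from 612553 to 615983. Its counts were 6, 3 and 13 without Dox and 17, 18 and 42 with Dox. These are 1.59 ± 0.670 and 4.74 ± 0.939 CPM (SD, n = 3 each) and do not overlap. The log2 fold change was 1.49 (SE 0.40, adjusted p = 0.0111, edgeR quasi-likelihood F-test), and it lost its call without replicate 1 or replicate 2 without Dox (adjusted p = 0.0517 and 0.0604, same test). IRF7 passed the filter only through the libraries with Dox. IRF9, the DNA-binding subunit of ISGF3, had 8, 5 and 7 counts without Dox and 13, 10 and 34 with Dox. Its log2 fold change of 1.13 did not pass (SE 0.43, adjusted p = 0.0605, same test), although every library with Dox was above those without. IRF2, a repressor of interferon responses, had 0.62 (adjusted p = 0.0567, same test), with 8.38 to 12.0 CPM without Dox and 13.4 to 17.8 with Dox. IRF3, which relays signals from the RNA sensors, had 0.52 (adjusted p = 0.0589, same test), with 16.2 to 23.2 CPM without Dox and 24.4 to 32.8 with Dox. Each of IRF2, IRF3 and IRF9 passed under upper-quartile normalization (adjusted p = 0.0395, 0.0385 and 0.0493, same test). IRF2 also passed when replicate 3 with Dox was left out (adjusted p = 0.0285), and IRF3 when replicate 2 with Dox was left out (adjusted p = 0.0472). IRF3 shares 734 exon bases with BCL2L12 on the other strand, and BCL2L12 had a log2 fold change of -0.67. IRF1 had 0.75 times its level without Dox, with overlapping libraries at 4.71 to 9.30 CPM without Dox and 3.70 to 5.52 with Dox (adjusted p = 0.396, same test).

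The 3 RNA sensor genes encode related helicases, and DHX58 had the largest rise of all members tested. DHX58 encodes LGP2, which lacks the signalling domains of RIG-I and MDA5 and modulates both, and lies on chromosome 17 from 42101404 to 42112714. Its counts were 11, 5 and 12 without Dox and 55, 47 and 123 with Dox. In CPM this was 2.17 ± 0.665 without Dox and 13.7 ± 2.17 with Dox (SD, n = 3 each), a 6.27-fold rise. The log2 fold change was 2.65 (SE 0.31, adjusted p = 6.469e-06, edgeR quasi-likelihood F-test) and stayed between 2.49 and 2.85 with each library left out in turn. DHX58 passed the filter only through the libraries with Dox, so these fits are no support for a rise. DDX58 had 8.88, 13.6 and 13.1 CPM without Dox and 13.7, 19.8 and 15.9 with Dox. Its log2 fold change of 0.46 did not pass (adjusted p = 0.160, same test). IFIH1 had 19.1, 19.5 and 22.2 CPM without Dox and 16.96, 15.3 and 15.5 with Dox. Its log2 fold change of -0.35 did not pass either (adjusted p = 0.178, same test), although each library with Dox was the lower.

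The ratio of DHX58 to its relatives within a library does not depend on scaling. There were 32.4, 11.4 and 16.0 DHX58 counts per 100 DDX58 counts without Dox and 87.3, 66.2 and 101.7 with Dox. Against IFIH1, there were 15.1, 7.94 and 9.45 without Dox and 70.5, 85.5 and 104.2 with Dox. The libraries of the conditions were apart in both ratios, with log2 differences of 2.21 and 3.04 (exact permutation test over libraries, two-sided, p = 0.1 each, the smallest p that 3 against 3 allows). These are among 5 ratios within families that were computed after the values of the genes had been seen, and the adjusted p was also 0.1 for each. The gene with the larger fold change was set first in each ratio, so that their shared direction is no result.

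**Figure D2:**
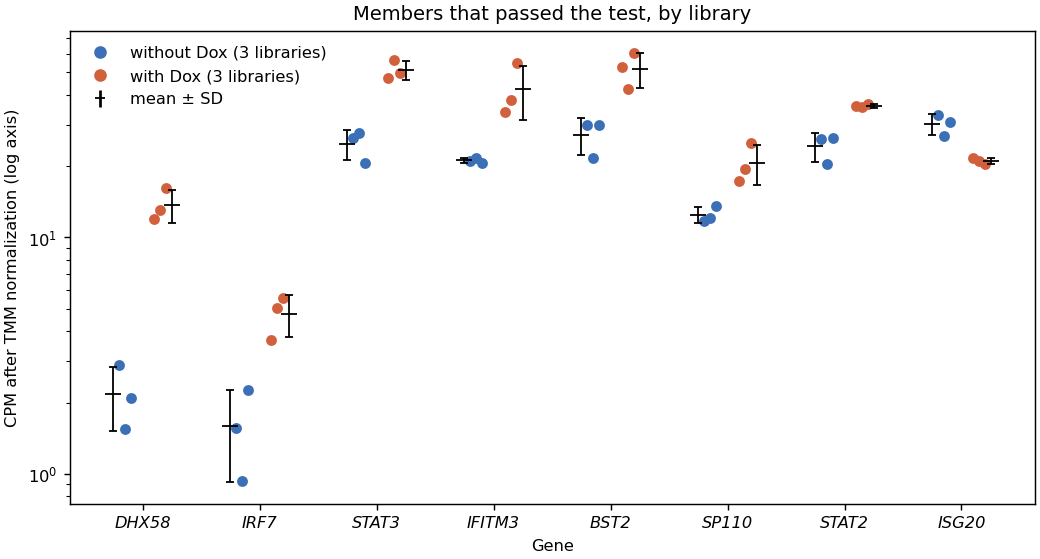
CPM after TMM normalization (log axis) of the 8 members that passed the test, with 1 point for each of the 3 libraries without Dox and 3 with Dox and the mean ± SD beside them. The conditions are apart in each gene, but the genes were chosen by the test on these same libraries, so this is no further support. The gap is widest for DHX58, from 1.55 to 2.87 CPM without Dox to 12.0 to 16.2 with Dox. DHX58 and IRF7 passed the filter only through the libraries with Dox.

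Among the IFITM genes, which encode membrane proteins that hinder virus fusion, IFITM3 rose and its neighbours on chromosome 11 did not pass. IFITM3 lies from 319676 to 329475. It had 21.2, 21.7 and 20.8 CPM without Dox and 34.1, 38.1 and 54.8 with Dox. The libraries without Dox differed little, and replicate 3 was the highest of those with Dox. The log2 fold change was 1.01 (SE 0.19, adjusted p = 6.494e-04, edgeR quasi-likelihood F-test), and it was called with each library left out in turn, between 0.77 and 1.15. IFITM1 was abundant in every library, at 1389, 1781 and 1438 CPM without Dox and 1499, 1462 and 1677 with Dox, and its log2 fold change was 0.01 (SE 0.13). IFITM2 had 43.3 to 48.3 CPM without Dox and 45.9 to 50.04 with Dox, with a log2 fold change of 0.06 (SE 0.14). These genes are alike in sequence, and how the counting divided reads between them is not known. Summed as 1 gene, of which IFITM1 made up most, they had a log2 fold change of 0.03 (adjusted p = 0.898, same test). There were 1.52, 1.22 and 1.44 IFITM3 counts per 100 IFITM1 counts without Dox and 2.28, 2.61 and 3.27 with Dox. Per 100 IFITM2 counts there were 43.8, 45.5 and 48.0 without Dox and 69.5, 83.0 and 109.4 with Dox. Both ratios were apart between the conditions, with log2 differences of 0.95 and 0.91 (exact permutation test, two-sided, p = 0.1 each, the smallest that 3 against 3 allows).

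BST2 encodes tetherin, which holds budding virus particles at the cell surface, and lies on chromosome 19 from 17402939 to 17405630. It had 30.0, 21.7 and 30.0 CPM without Dox and 52.6, 42.6 and 60.2 with Dox. The groups were apart, with a log2 fold change of 0.92 (SE 0.17, adjusted p = 7.621e-04, edgeR quasi-likelihood F-test), which was called with each library left out in turn. SP110, a nuclear body protein on chromosome 2 from 230165186 to 230225729, had 11.8, 12.1 and 13.6 CPM without Dox and 17.4, 19.5 and 25.1 with Dox. Its log2 fold change was 0.73 (SE 0.21, adjusted p = 0.0153, same test), and it lost its call without replicate 1 without Dox or replicate 3 with Dox (adjusted p = 0.0688 and 0.0870, same test). On the other strand, SP110 shares 1898 exon bases with a long noncoding RNA gene (ENSG00000225963) and 170 with SP140. ISG20, an exonuclease of RNA on chromosome 15 from 88635670 to 88656483, fell. It had 32.9, 27.0 and 30.9 CPM without Dox and 21.7, 21.2 and 20.5 with Dox, and its log2 fold change was -0.52 (SE 0.17, adjusted p = 0.0277, same test). ISG20 lost its call in 4 of the 6 fits that left out a library (adjusted p up to 0.111, same test), in which replicate 1 or 3 of either condition was left out, and under library totals alone (adjusted p = 0.0818, same test).

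Genes of the ISG15 system, in which the ubiquitin-like protein ISG15 is joined to and removed from other proteins, were tested for ISG15 and USP18, and neither passed. ISG15 itself was well expressed in every library, at 255.2, 252.7 and 228.8 CPM without Dox and 259.0, 232.4 and 288.7 with Dox. The libraries overlapped, and the log2 fold change was 0.09 (SE 0.13). USP18, which removes ISG15 and dampens receptor signalling, had 30.3, 24.8 and 21.8 CPM without Dox and 17.6, 20.6 and 18.0 with Dox. Each library with Dox was below those without, and the log2 fold change of -0.45 did not pass (adjusted p = 0.0854, edgeR quasi-likelihood F-test). UBE2L6, the conjugating enzyme for ISG15, had 0 counts in each library without Dox and at most 2 with Dox, which is within the limit of detection taken as 3 counts. HERC6 had 2 to 9 counts without Dox and 7 to 11 with Dox and was not tested either.

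ADAR, the RNA-editing enzyme, had 209.0 to 222.3 CPM without Dox and 201.5 to 218.1 with Dox, with a log2 fold change of -0.04 (SE 0.12). OAS3, a synthase of 2ʹ,5ʹ-oligoadenylates, had 20.6 to 28.8 CPM without Dox and 17.4 to 19.5 with Dox and did not pass (log2 fold change -0.35, adjusted p = 0.192, edgeR quasi-likelihood F-test). The groups did not overlap in OAS3 and did in ADAR. IFI35 had a log2 fold change of 0.77 (adjusted p = 0.0692, same test), with 20, 27 and 28 counts without Dox and 34, 34 and 101 with Dox, and it passed when replicate 2 without Dox or replicate 1 with Dox was left out (adjusted p = 0.0380 and 0.0477). IFIT5 had 0.57 (adjusted p = 0.240, same test), with 8 to 19 counts without Dox and 15 to 37 with Dox. PARP9 and DTX3L, whose products form a complex in the DNA damage and interferon responses, are adjacent on chromosome 3 and are transcribed away from each other, and they share 139 exon bases. PARP9 had 45.5, 44.3 and 60.6 CPM without Dox and 67.0, 63.2 and 62.7 with Dox (log2 fold change 0.35, adjusted p = 0.0980, same test). It passed when replicate 3 without Dox was left out (adjusted p = 0.0305) and under library totals alone (adjusted p = 0.0266, same test). DTX3L had 99.3, 72.9 and 83.3 CPM without Dox and 71.5, 78.8 and 66.5 with Dox (log2 fold change -0.24, adjusted p = 0.227, same test). There were 45.8, 60.9 and 72.7 PARP9 counts per 100 DTX3L counts without Dox and 93.6, 80.2 and 94.3 with Dox. The conditions were apart in this ratio, by 0.60 on the log2 scale (exact permutation test, two-sided, p = 0.1, the smallest that 3 against 3 allows).

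**Figure D3:**
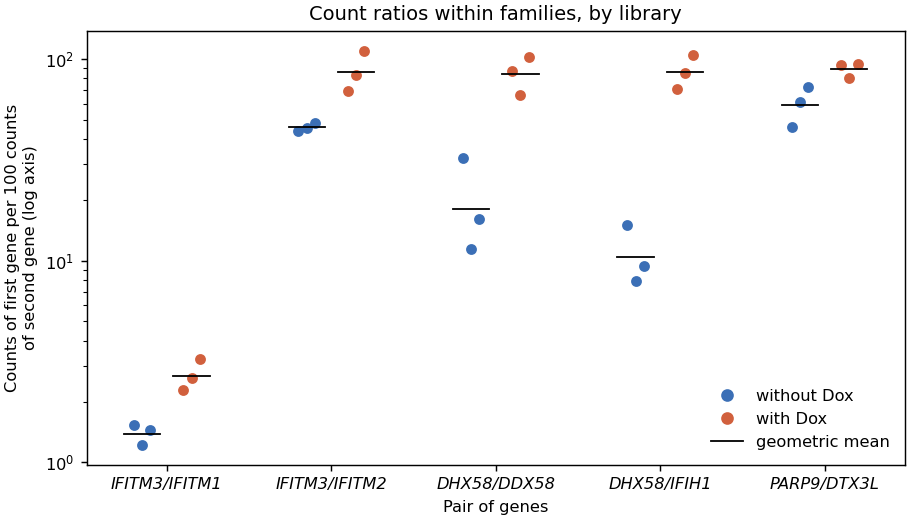
Counts of the first gene per 100 counts of the second (log axis) for 5 pairs of related or adjacent genes, with 1 point for each of the 3 libraries a condition and a line at the geometric mean. The libraries with Dox lie above those without in all 5 pairs, by log2 differences of 0.60 for PARP9/DTX3L to 3.04 for DHX58/IFIH1, a direction fixed by choosing the pairs and the first gene after the values were seen.

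The 15 members under the filter include genes that are commonly read as signs of an interferon response. MX2, OAS1, OAS2, OASL, UBE2L6 and IFI44L had at most 3 counts in every library. MX1 had 3, 8 and 10 counts without Dox and 14, 10 and 12 with Dox, and shares 562 exon bases with TMPRSS2 on the other strand. IFI27 had 0, 4 and 1 counts without Dox and 0, 1 and 1 with Dox. At this depth 3 counts were 0.394 to 0.930 CPM, so that differences under this level could not be seen. IFIT1 had 0 counts in every library without Dox and 4, 1 and 5 with Dox. IFIT2 had 1, 0 and 4 counts without Dox and 12, 9 and 8 with Dox, and SAMD9 had 5, 3 and 3 without Dox and 13, 7 and 17 with Dox. IFI6 had 4, 0 and 1 counts without Dox and 11, 3 and 22 with Dox, IFI44 had 1, 0 and 2 and then 2, 8 and 5, and IFIT3 had 2, 5 and 4 and then 3, 0 and 9. On the other strand, IFIT2 shares 65 exon bases with LIPA, and IFIT3 shares 94. LIPA was itself called higher with Dox (log2 fold change 0.68, adjusted p = 0.00585, edgeR quasi-likelihood F-test), and the part of this overlap in the counts was not tested. In a fit without a filter, in which all 46 members were tested, IFIT2 and IFI6 passed (adjusted p = 0.0287 and 0.0150, edgeR quasi-likelihood F-test) and the other 13 did not. Of the 6 fits that left out a library, 4 tested IFIT2, which passed without replicate 3 of either condition (adjusted p = 0.0326 and 0.00922) and not without replicate 1 or 2 without Dox (0.111 and 0.107). IFI6 was tested in 3 and passed without replicate 1 without Dox or replicate 2 with Dox (adjusted p = 0.0128 and 0.0101) and not without replicate 2 without Dox (0.0876). In the full table no library without Dox reached the level of the filter for either gene, so these passes are no support for a rise. Summed over the 15 genes, there were 27, 26 and 33 counts without Dox and 76, 47 and 95 with Dox. These sums are raw counts that are not scaled for library size, and replicate 3 had the most reads in each condition. The mean CPM was lower with Dox for IFIT3, OAS1, OAS2 and IFI27. The sum was not tested and is no support for a rise of these genes as a set.

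**Figure D4:**
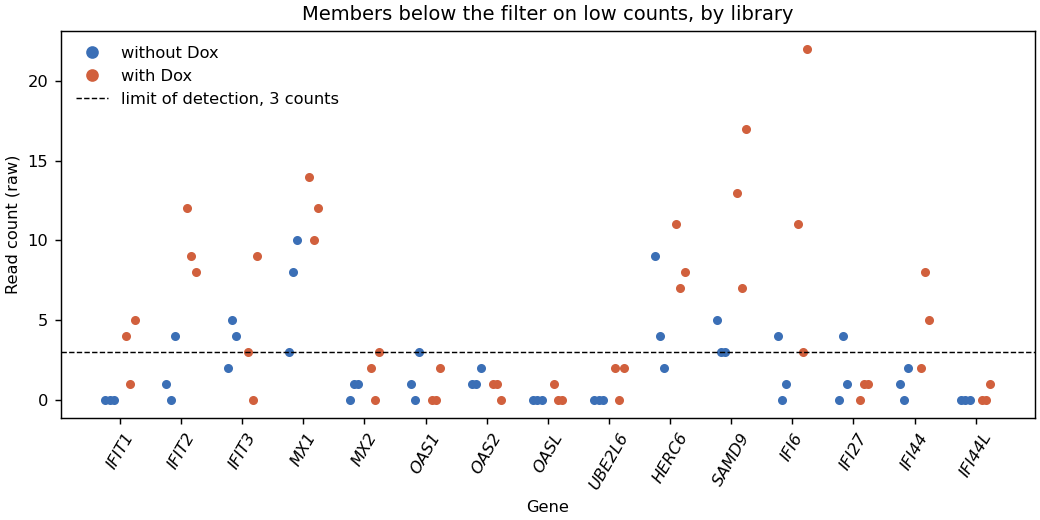
Raw read counts (vertical axis) of the 15 members below the filter on low counts, with 1 point for each library and a dashed line at the limit of detection of 3 counts. IFIT2, SAMD9 and IFI6 reach 12, 17 and 22 counts with Dox, and 6 of the genes stay at or under the line in every library.

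The ISRE and GAS elements were looked for in the promoters of the members. RefSeq promoters on GRCh38.p14 were found for 35 of the 46, and the 250 bases before the start were searched on both strands for GAAANNGAAA (ISRE) and TTCNNNGAA (GAS). ISRE letters were in 15 of the 35 (42.9%), against 3.07% of 27305 promoters of the same length, and GAS letters in 7 (20%), against 6.78%. A match is a description of the letters and not a site of binding. The first entry listed for each gene was used, and its start can lie inside the gene. For IFNGR1, the 150 bases before the start (137219197 to 137219346) lay inside the gene (137197483 to 137219449 in GENCODE 44). The 150 bases before the start are given, with the ISRE letters in capitals, for a pair of members that rose with matches (IFITM3 and BST2), a pair that did not pass (IFITM1 and ISG15) and the one that fell (ISG20). Each is written 5ʹ to 3ʹ on the strand of its gene, on GRCh38.p14.
IFITM3, chr11:320861-321010, strand -: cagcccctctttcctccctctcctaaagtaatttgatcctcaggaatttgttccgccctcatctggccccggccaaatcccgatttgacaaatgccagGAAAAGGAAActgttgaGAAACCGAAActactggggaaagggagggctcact
BST2, chr19:17405631-17405780, strand -: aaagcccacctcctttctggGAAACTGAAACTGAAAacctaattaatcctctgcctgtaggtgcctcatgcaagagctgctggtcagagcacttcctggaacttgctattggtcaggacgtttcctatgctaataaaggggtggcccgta
IFITM1, chr11:313890-314039, strand +: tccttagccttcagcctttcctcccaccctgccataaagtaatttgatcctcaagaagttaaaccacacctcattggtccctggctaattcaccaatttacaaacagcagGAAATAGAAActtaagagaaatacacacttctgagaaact
ISG15, chr1:1013347-1013496, strand +: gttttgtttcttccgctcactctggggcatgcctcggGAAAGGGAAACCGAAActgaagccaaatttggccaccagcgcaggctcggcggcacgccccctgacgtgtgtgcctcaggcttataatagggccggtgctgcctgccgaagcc
ISG20, chr15:88638866-88639015, strand +: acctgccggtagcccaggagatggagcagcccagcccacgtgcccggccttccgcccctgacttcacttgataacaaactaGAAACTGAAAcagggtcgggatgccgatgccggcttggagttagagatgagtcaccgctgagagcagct
IFITM3 has a pair of separate matches that begin 52 and 35 bases before the start, where IFITM1 has 1 that begins 40 bases before it. In BST2 and in ISG15 2 matches overlap, so that they share letters, and ISG20 has 1. Of the 8 members tested with ISRE letters, 2 were higher with Dox, 1 was lower and 5 did not pass, with log2 fold changes from -0.52 to 1.01 and a median of 0.05. Of the 16 tested without ISRE letters in this window, 3 were higher (STAT2, STAT3 and SP110) and 13 did not pass, and the median was 0.22. IRF7 and DHX58, which had the largest rises, are among 7 tested members that had no promoter entry and stand in neither group. Over the whole table, 22.4% of the 196 tested genes with ISRE letters were called, against 26% of 9136 without, and 22 of the 196 were higher and 22 lower. These counts were not tested.

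**Figure D5:**
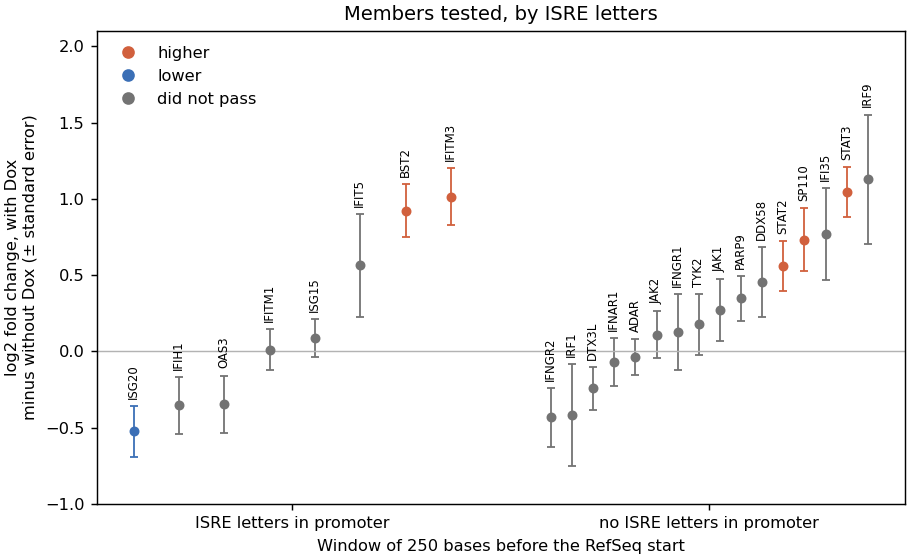
The log2 fold change (with Dox minus without Dox, ± standard error) of 24 members tested, split by whether the 250 bases before the RefSeq start hold ISRE letters and ordered by value within each group. Genes that rose, fell or did not pass stand among the 8 with ISRE letters, from ISG20 at -0.52 to IFITM3 at 1.01.

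A list of 78 other genes of interferon signalling was read in the same fit, and 38 of them were tested. Of these, 6 were higher and 2 lower, which is 21.1% called, against 25.5% over the whole table, and 4 of the 38 passed the filter only through the libraries with Dox. No ligand gene was tested. IFNA1, IFNA2, IFNB1, IFNG, IFNL2 and IFNL3 had 0 counts in every library, IFNE had at most 4 and IFNK at most 2. IFNL1, a type III interferon, had 0 counts in each library without Dox and 2, 4 and 8 with Dox. Its receptor chain IFNLR1 had a log2 fold change of 0.05 (adjusted p = 0.914, edgeR quasi-likelihood F-test).

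GBP2, a guanylate-binding protein induced by interferon gamma, had 3, 2 and 9 counts without Dox and 21, 26 and 57 with Dox. The log2 fold change was 2.56 (SE 0.43, adjusted p = 2.674e-04, edgeR quasi-likelihood F-test), and it was called with each library left out in turn. GBP2 passed the filter only through the libraries with Dox, so these calls are no support for a rise. APOL2, TRAF3 and HELZ2 also rose, by 1.07, 0.59 and 0.66 on the log2 scale (adjusted p = 0.0117, 0.0246 and 0.0363, same test). TRAF3 is an adaptor of the RNA sensing pathway. APOL2 lost its call when replicate 1 without Dox or replicate 3 with Dox was left out (adjusted p = 0.0608 and 0.0597, same test), TRAF3 when replicate 1 or 2 without Dox or replicate 2 with Dox was (adjusted p up to 0.127), and HELZ2 when any library without Dox or replicate 1 with Dox was (adjusted p up to 0.142). NMI rose by 1.003 on the log2 scale (adjusted p = 0.0457, same test) and lost its call with each of the 6 libraries left out (adjusted p = 0.0562 to 0.163). Like GBP2, NMI passed the filter only through the libraries with Dox. TRIM14, an adaptor of the mitochondrial signalling protein MAVS, had 61.9 ± 10.1 CPM without Dox and 38.9 ± 6.96 with Dox (SD, n = 3 each), and fell with a log2 fold change of -0.68 (adjusted p = 0.00615, same test), and was called with each library left out in turn. SAMHD1, which hydrolyses deoxynucleotides, had -0.73 (adjusted p = 0.0346, same test) and lost its call in 5 of these 6 fits, all but that without replicate 2 with Dox (adjusted p up to 0.105), with DESeq2 and under library totals alone. None of the 5 inhibitors tested, among them PIAS1, PTPN1 and PTPN2, passed, and SOCS3 had 0 counts in every library. CGAS and STING1, the sensor of cytosolic DNA and its adaptor, had at most 2 counts in any library.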

How the data were processed

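QuantSeq 3ʹ mRNA libraries were made from 22Rv1-ABHD5 cells, 3 for each condition (without or with Dox). The kit is the REV version in the methods but FWD in the labels, and these read opposite strands. According to the study's methods and the submitters' processing notes, reads were demultiplexed with CASAVA 1.8.2, checked with FastQC and mapped to hg38 with STAR, and the notes also name HTSeq and edgeR. The authors deposited raw counts per gene symbol, and the annotation and use of strand are not given in the sources used here. The authors also deposited normalized values per library (a signal that is not whole, by a method not stated), used as an alternative. Rows without a gene name did not enter totals or tests, and held 32.5% to 39.5% (no feature) and 3.05% to 3.37% (ambiguous) of the listed reads.

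Counts of the whole table were tested with edgeR 4.0.16 in R 4.3.3 (TMM, default filterByExpr, quasi-likelihood F-test; a gene was called at a p under 0.05 after Benjamini-Hochberg adjustment). DESeq2 1.42.0 and limma 3.58.1 on log2(normalized value + 1) were alternatives. The members and lists were chosen with earlier results of these data known. Each member that passed, and each receptor, kinase, STAT and IRF, is named with its values, the others by role, and from the list of other pathway genes up to 5 called genes in each direction, by smallest adjusted p; NMI and the pathway genes given by counts or without a call were named after their values were seen. A called gene of that list and a marker are counted but not reported by name here. In a simulation of this comparison over 12233 genes the test found 80% of 2-fold and 99% of 4-fold changes, and 2.72% of its calls were false. Only 100 genes were changed 2-fold and 100 were changed 4-fold, with dispersions taken from the same fit. In the data 25.5% of genes were called, so these rates may not hold there or for genes with low counts. Replicates of a condition differed beyond sampling noise in each pair (chi-square per degree of freedom 4.07 to 11.3). The limit of detection of 3 counts covers counting error only, and the study's methods do not mention molecular identifiers. Positions and shared exon bases are from GENCODE 44 on hg38, and promoters from RefSeq. Shared exon bases are not named for every member that has them. Among those left out above, DDX58 shares 4471 with ENSG00000288684 and IRF9 shares 1544 with ENSG00000259529, on the same strand. On the other strand, IRF1 shares 2805 with IRF1-AS1 and IFITM3 shares 405 with ENSG00000255328.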

Additional observations from a re-analysis of the deposited data

How the results depend on the processing

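Of the 7 members higher with Dox, STAT3, IFITM3 and BST2 kept their call in each of 14 alternatives and DHX58 in each of the 13 in which it was tested. STAT2 kept it in 13 of 14, SP110 in 12 of 14, IRF7 in 11 of 13 and ISG20, the member that fell, in 9 of 14. DHX58 and IRF7 passed the filter only through the libraries with Dox, so their tallies are no support for a rise. They were not tested in the fit with at least 10 counts in every library. Under scaling by library totals alone, under which 65.7% in place of 46.4% of all calls were rises, 12 members were higher and 0 lower (17.8% and 9.29% of all genes), 11 genes of the pathway list were higher and 1 lower, and IFNAR1 turned to 0.050. Under upper-quartile normalization, 10 members were higher (14.3% of all genes) and that share was 55.6%. Without a filter, 10 members were higher and 2 lower (8.02% and 9.56% of all 19356 genes tested), and the median log2 fold change was 0.45, with all 46 members tested. With DESeq2, 4 genes of the pathway list were higher and 1 lower (10.3% and 12.7% of all genes). With at least 10 counts in every library 4 were higher (11.9% of all genes). With each library left out in turn, members higher numbered 6 to 9 and members lower 0 to 2, pathway genes higher 3 to 5 and pathway genes lower 1 to 3, and all genes called 2181 to 3112. Of all genes tested, 7.53% to 11.6% were then higher and 9.71% to 13.1% lower. In these 6 fits the median of the members tested, whose number was 31 to 36, was 0.24 to 0.37, and IFNAR1 was -0.23 to 0.13 and IFNAR2 -0.040 to 0.15. The set of members tested changed between these fits, and the cause of these shifts was not tested. ABHD5 kept its call in each alternative, at 0.81 to 1.06.

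Libraries of the same replicate number did not all deviate together (correlations across genes of same-numbered deviations from the condition mean of -0.01, 0.25 and 0.09), and 2 of the 6 libraries correlated best with their own number. With a replicate block, 8 members were higher and 2 lower, and 6 pathway genes were higher and 2 lower. In this fit 3537 genes were called in all, with 13.5% of the 12233 genes tested higher and 15.4% lower. Without the block these shares were 11.9% and 13.7%. The block added calls for IRF2 and IFNGR2 (adjusted p = 0.0361 and 0.0289) and lost none.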

Other observations

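Some low genes of the pathway list are given as counts, with no test, and were chosen after their values were seen. LGALS3BP, a secreted glycoprotein induced by interferon, had 0 counts in each library without Dox and 9, 6 and 14 with Dox. TLR3, a receptor of double-stranded RNA, had 2, 2 and 3 counts without Dox and 9, 5 and 13 with Dox. CISH, an inhibitor of cytokine signalling that STAT5 induces, had 1, 3 and 2 counts without Dox and 9, 7 and 11 with Dox. CXCL10, a chemokine strongly induced by interferon gamma, had 0 counts in every library, and RSAD2 had 8, 3 and 12 without Dox and 3, 4 and 12 with Dox.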
